A study of Mus musculus with 24 samples.

Results

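The CDK inhibitor genes studied here are the 7 genes Cdkn1a, Cdkn1b, Cdkn1c, Cdkn2a, Cdkn2b, Cdkn2c and Cdkn2d, taken by name from 18193 genes measured. They were read by 9 of the 34945 probe sets with a single gene in the annotation, with Cdkn1a and Cdkn1b read by 2 probe sets each. Expression was measured on Affymetrix arrays in 12 primary B-cell lymphomas, each cultured both with Adriamycin (ADR, also called doxorubicin, which damages DNA) at 0.05 µg/ml for 5 days and untreated, giving 24 arrays and 12 matched pairs. Cells of both groups were taken from enlarged lymph nodes of mice with the Emu-myc transgene, which drives Myc in B-lineage cells. They also carried a retroviral Bcl2 gene that blocks apoptosis, were selected with puromycin and were kept on a feeder layer of NIH 3T3 fibroblasts stopped by gamma irradiation. The sources used here give no animal age or strain. Values are log2 expression per probe set, and changes are ADR minus untreated within a lymphoma. Changes with an adjusted p under 0.05 are called, in limma's paired fit over all 34945 probe sets.

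Cyclin-dependent kinases drive the cell cycle, and the inhibitors stop them in either of 2 ways. The INK4 proteins p16, p15, p18 and p19, encoded by Cdkn2a, Cdkn2b, Cdkn2c and Cdkn2d, bind CDK4 and CDK6 and keep D-type cyclins from activating them, so that RB stays active and E2F genes stay off. The CIP/KIP proteins p21, p27 and p57, encoded by Cdkn1a, Cdkn1b and Cdkn1c, bind cyclin and kinase together and block CDK2 above all. Cdkn2a also encodes p19ARF from an alternative first exon, which stabilises p53 by holding back MDM2. Cdkn1a is a direct p53 target and the usual route from DNA damage to arrest, while Cdkn2a is the inhibitor most tied to senescence. In Emu-myc lymphomas the ARF and p53 arm is often lost as tumours form, and the NIH 3T3 line is known to lack Cdkn2a.

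Promoter windows from RefSeq (GRCm38.p6) were at hand for 6 of the 7 genes, as 9 windows of 250 bases before a start site, and 4 motif families were searched on both strands. These were CATG, any 6 bases and CATG again, the cores of a pair of p53 half-sites; CACGTG, the E-box that MYC binds; TTTCCCGC, TTTCGCGC, TTTGGCGC and TTTGCCGC for E2F; and GGGCGG, the GC box. The windows below belong to the members whose values passed the test or came nearest to it, with every motif match in capitals and each window ending at the base before its start site. For Cdkn2c the window of the upstream start is printed. The window of its downstream start (chr4:109665373-109665622) held no match and is left out.
Cdkn1a, upstream start (chr17:29090729-29090978, + strand): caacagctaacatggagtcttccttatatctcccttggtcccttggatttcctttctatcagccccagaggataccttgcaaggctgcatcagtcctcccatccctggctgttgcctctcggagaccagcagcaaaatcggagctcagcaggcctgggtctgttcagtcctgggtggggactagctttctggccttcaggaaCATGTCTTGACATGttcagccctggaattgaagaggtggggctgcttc
Cdkn1a, downstream start (chr17:29093519-29093768, + strand): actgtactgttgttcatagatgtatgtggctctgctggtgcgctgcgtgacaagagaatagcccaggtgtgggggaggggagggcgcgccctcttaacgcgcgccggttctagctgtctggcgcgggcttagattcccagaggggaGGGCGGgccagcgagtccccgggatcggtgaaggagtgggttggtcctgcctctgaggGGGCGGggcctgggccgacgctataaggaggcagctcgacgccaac
Cdkn2c (chr4:109666757-109667006, − strand): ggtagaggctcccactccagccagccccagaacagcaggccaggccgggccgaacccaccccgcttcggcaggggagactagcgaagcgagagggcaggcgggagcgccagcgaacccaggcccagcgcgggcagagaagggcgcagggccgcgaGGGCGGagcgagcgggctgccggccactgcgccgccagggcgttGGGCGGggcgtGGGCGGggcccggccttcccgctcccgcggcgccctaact
Cdkn2d (chr9:21291210-21291459, − strand): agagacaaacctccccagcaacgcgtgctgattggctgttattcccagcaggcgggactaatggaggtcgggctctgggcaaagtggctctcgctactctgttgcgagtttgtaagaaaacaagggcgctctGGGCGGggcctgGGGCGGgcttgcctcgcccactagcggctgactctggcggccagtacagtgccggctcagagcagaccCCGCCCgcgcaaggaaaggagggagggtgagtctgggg
The p53 core pair stood in 1 of the 9 windows, 48 bases before the upstream start of Cdkn1a, and in 0.490% of 32851 windows of all genes. The downstream start of Cdkn1a, 2790 bases away, had no such match in its window and 2 GC boxes. E2F letters were found in 1 window, 99 bases before a start of Cdkn2a, against 1.86% of all windows. No window held CACGTG (6.02% of all), and 5 held a GC box (32.7% of all). These matches describe letters only.

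Cdkn1a, the p21 gene, was the only member called higher and Cdkn2d, the p19 INK4D gene, the only one called lower. Of the 7 genes 1 rose and 1 fell, where 13.4% of all genes rose and 12.5% fell, so the share of members called (2 of 7) was near that of all genes (25.9%). Their median change was -0.03, against -0.006 over all genes. Cdkn2c was lower in 10 of 12 lymphomas without passing the test, Cdkn1b did not pass by either probe set, and Cdkn1c, Cdkn2a and Cdkn2b lay near the floor of the arrays in most lymphomas. The floor is taken here as 4.47, the highest array median, and no fold is given for a gene whose mean lies under it in either group.

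**Figure D1:**
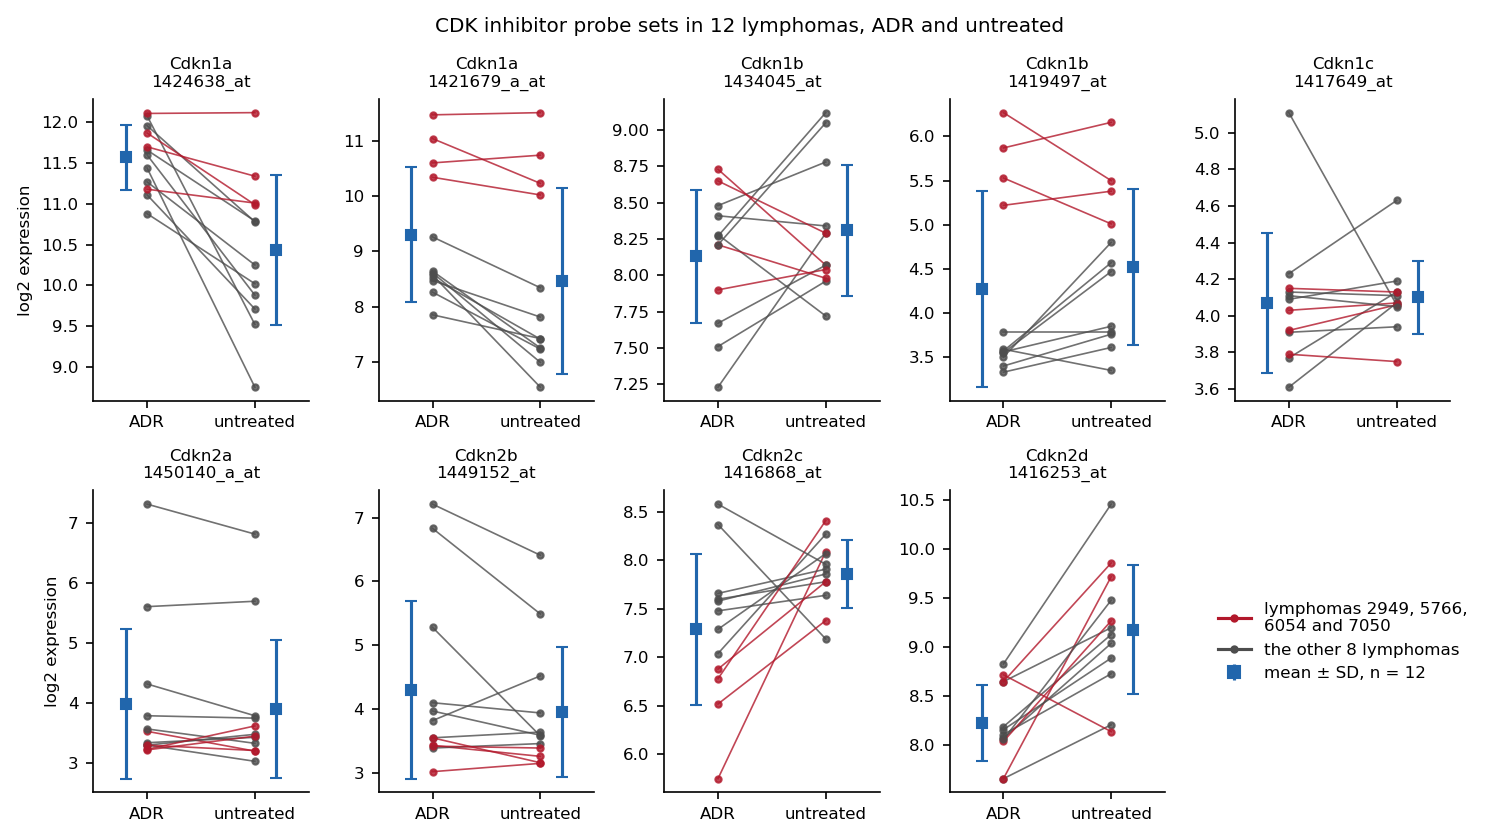
Log2 expression of the 9 CDK inhibitor probe sets in ADR (left) and untreated (right) arrays, with a line joining the pair of each of 12 lymphomas and squares for mean ± SD (n = 12). Lymphomas 2949, 5766, 6054 and 7050, in red, stand apart in the second probe sets of Cdkn1a and Cdkn1b. The vertical axes differ between panels and do not start at 0.

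RNA of other cells changed along with treatment, and some arrays stood apart. Of 20 fibroblast markers 16 were called higher and 0 lower. Their mean level lay between 5.59 and 9.80 in ADR arrays and between 5.12 and 6.17 in untreated arrays, and 9 of the 20, Col1a1 and Pdgfrb among them, were near the floor in at least one group. Of 15 macrophage markers 10 rose, with a mean level of 5.82 to 9.39 in ADR arrays and 4.77 to 8.23 in untreated arrays. Among the rest, C1qa, C1qb, C1qc and Mrc1 were near the floor in at least one group and were not called. Of 9 measured B-lineage markers 4 fell, with a mean of 7.59 to 9.97 in ADR arrays and 8.77 to 9.53 in untreated arrays, well above the floor in every array, as the labelled cell type has. T and NK markers (4.17 to 4.60 with ADR, 4.21 to 4.50 untreated) and the erythroid genes Hba-a1 and Slc4a1 stayed near the floor. In such mixed samples, fewer cells of a type and less RNA per cell cannot be told apart. In untreated arrays of lymphomas 2949, 5766, 6054 and 7050 the actin control probe sets differed more between their 3′ and 5′ ends (0.56 to 0.76, against 0.14 to 0.41 in the other 8), and a control for 18S ribosomal RNA was as high or higher (7.31 to 7.99, against 6.62 to 7.31). With ADR the actin difference overlapped (0.33 to 0.70, against 0.07 to 0.92) through lymphoma 1570 alone, the rest of the 8 reading at most 0.31. The 18S control with ADR read 7.60 to 8.24, against 6.17 to 8.11. There too the overlap came from lymphoma 1570 (8.11), the rest of the 8 reading at most 7.40. These 4 lymphomas were noticed after the values were seen. Treated arrays carry "sen" in the file names of 5 lymphomas and "DOX" in those of 7; what these names mark is not stated.

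Cdkn1a was high in every ADR array and widely spread before treatment. By the probe set with the higher mean, its lowest, median and highest values were 10.88, 11.63 and 12.11 in ADR arrays and 8.75, 10.52 and 12.12 in untreated arrays. The ADR values thus lay within a narrow band inside the untreated range (SD 0.40 and 0.92, n = 12 each). The mean change was 1.14 (SE 0.22, 95% interval 0.66 to 1.62, limma adjusted p = 0.00222), a 2.21-fold rise seen in 11 of 12 lymphomas. The largest rises were in lymphomas 2581 (11.44 with ADR, 8.75 untreated) and 1570 (12.08 with ADR, 9.52 untreated), which had the lowest untreated values. Lymphoma 2949 had the highest untreated value and did not move (12.11 with ADR, 12.12 untreated). Each change contains the untreated value, which spread more widely than the ADR value, so this order is in part built in.

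The second Cdkn1a probe set rose as well, by 0.85 (SE 0.17, adjusted p = 0.00290, higher in 10 of 12), but it sorted the lymphomas differently. In lymphomas 2949, 5766, 6054 and 7050 it read 10.34 to 11.47 with ADR and 10.02 to 11.51 untreated. In the other 8 it read 7.85 to 9.26 with ADR and 6.54 to 8.34 untreated, so the 2 sets of lymphomas did not overlap in either group. Such a split, with all 8 arrays of the 4 above all 16 of the rest, was seen in 146 of 34945 probe sets (0.418%), and the reverse in 64 (0.183%). The 4 were picked out after the values of this probe set were seen, so these shares describe the split and do not test it. Changes by the 2 probe sets ran alike over the 12 lymphomas (Pearson r = 0.91), while levels over the 24 arrays did so less (r = 0.77). The sources used here do not say which transcripts each probe set reads.

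The rise of Cdkn1a was small in those 4 lymphomas. By the first probe set it was between -0.01 and 0.88 there, with a mean of 0.35, and between 0.86 and 2.69 in the other 8, with a mean of 1.54. Untreated values by this probe set were 10.99 to 12.12 in the 4 and 8.75 to 10.79 in the other 8. With ADR they overlapped (11.18 to 12.11, against 10.88 to 12.08). The 4 were picked by high values of the second Cdkn1a probe set, so their small rise is in part built in. Without the 4 the estimate was 1.54 (limma adjusted p = 0.00324), in a setting chosen after the values were seen. In a fit that also held each array's fibroblast marker mean the estimate was 1.11, close to that without it, but it no longer passed (SE 0.43, adjusted p = 0.176). With macrophage markers added it was 0.16 (adjusted p = 0.939), a fit in which limma called 0 probe sets and 4477 had an unadjusted p under 0.05. Within the naming sets the changes were 1.63 in the 5 sen lymphomas (adjusted p = 0.0555) and 0.79 in the 7 DOX lymphomas (adjusted p = 0.0332), and their difference was 0.84 (SE 0.41, adjusted p = 0.717). By the second probe set they were 1.14 (limma adjusted p = 0.0664) and 0.64 (adjusted p = 0.0553), called in neither. With the fibroblast covariate the second probe set was not called either (0.73, limma adjusted p = 0.251).

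**Figure D2:**
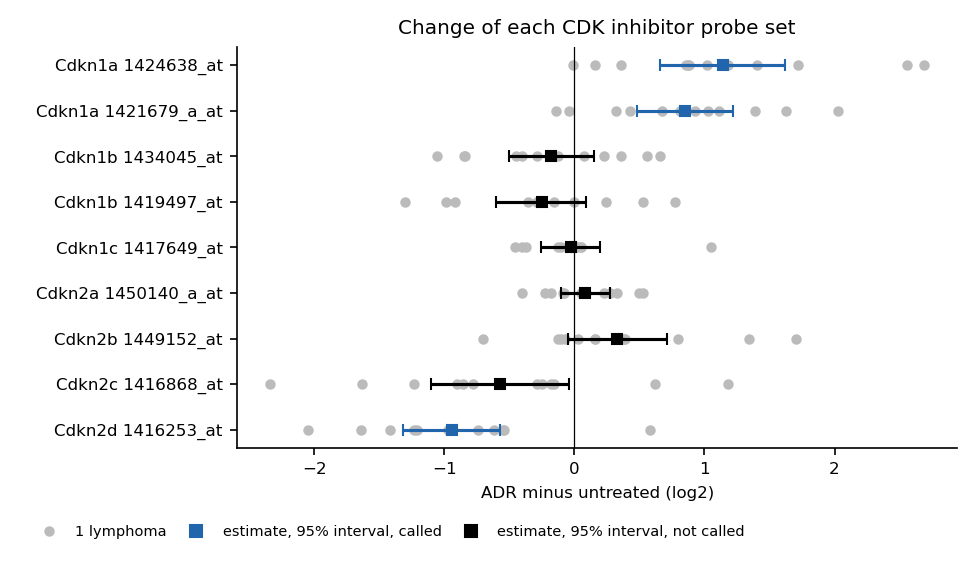
Change with ADR (ADR minus untreated, log2) for each of the 9 probe sets. Grey points are the 12 lymphomas and squares the limma estimate with its 95% interval, blue where called. Both Cdkn1a probe sets lie above 0 and Cdkn2d below it, and the Cdkn2c points run from -2.34 to 1.18.

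Cdkn1b, the p27 gene, whose protein is controlled largely by degradation, was well above the floor in all lymphomas by its stronger probe set and was not called by either. By the stronger probe set the lowest, median and highest values were 7.23, 8.24 and 8.73 with ADR and 7.72, 8.18 and 9.12 untreated. The mean change was -0.18 (SE 0.15, 95% interval -0.50 to 0.15, adjusted p = 0.457), with 7 lymphomas lower and 5 higher. The 3 largest falls were in 2581 (-1.06), 1467 (-0.85) and 403 (-0.84), and the 2 largest rises in 2949 (0.66) and 3594 (0.56). By this probe set the change was -0.59 in sen lymphomas and 0.12 in DOX lymphomas (adjusted p = 0.135 and 0.686), a difference of -0.71 that did not pass over all probe sets (unadjusted p = 0.0136, adjusted p = 0.687). The second probe set again separated lymphomas 2949, 5766, 6054 and 7050 (5.22 to 6.27 with ADR, 5.01 to 6.16 untreated) from the other 8 (3.33 to 3.78 with ADR, 3.35 to 4.80 untreated). Its mean change was -0.25 (SE 0.16, adjusted p = 0.299), lower in 9 of 12, with -0.46 in sen lymphomas and -0.11 in DOX lymphomas. The 9 include lymphoma 3594, which read 3.78 in both groups after rounding. Levels of the 2 Cdkn1b probe sets were weakly related over the 24 arrays (r = 0.21). The second probe set was near the floor, with an ADR mean of 4.27, which limits both its change and this r.

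Cdkn1c, the p57 gene, which is imprinted and acts mainly in development, stayed near the floor. Its values ran from 3.61 to 5.11 with ADR (median 4.06) and from 3.75 to 4.63 untreated (median 4.07). Lymphoma 3802 with ADR gave the only value above 5, at 5.11 against 4.06 untreated. The change was -0.03 (SE 0.11, 95% interval -0.26 to 0.20, adjusted p = 0.890).

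Cdkn2a was near the floor in 10 of 12 lymphomas and stayed there with ADR. The exceptions were lymphoma 403 (7.32 with ADR, 6.82 untreated) and lymphoma 3594 (5.61 with ADR, 5.70 untreated), the only ones with values above 5. In the other 10 the highest value was 4.32, in lymphoma 1570 with ADR, against 3.79 untreated. Over all 12 the change was 0.08 (SE 0.08, 95% interval -0.10 to 0.27, adjusted p = 0.532), with 7 higher and 5 lower. The interval is that of array values, which are compressed near the floor. The sources used here do not say whether the probe set reads the p16 transcript, the p19ARF transcript or both.

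The lymphomas with Cdkn2a had the 2 lowest Cdkn1a values among ADR arrays. Among untreated arrays they did not, as lymphomas 2581 (8.75) and 1570 (9.52) read lower. Cdkn1a was 10.88 with ADR and 10.02 untreated in lymphoma 403, and 11.11 with ADR and 9.71 untreated in lymphoma 3594. The next ADR value was close, at 11.18 in lymphoma 7050. The p53 target mean was 8.60 with ADR and 7.57 untreated in lymphoma 403, and 8.51 with ADR and 7.65 untreated in lymphoma 3594. With ADR it was lower in lymphomas 7050 (7.98), 6054 (8.16), 2949 (8.38) and 5766 (8.47). Untreated values were similar in lymphomas 3802 (7.58) and 3769 (7.64). A link between Cdkn2a and Cdkn1a levels was not tested.

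Cdkn2b, the p15 gene, neighbours Cdkn2a on chromosome 4 and is known as a target of TGF-beta. It was above the floor in 4 lymphomas, of which 403 was also one of the 2 with Cdkn2a. The values in lymphoma 5560 were 7.21 with ADR and 6.41 untreated, and in lymphoma 1570 they were 6.83 with ADR and 5.49 untreated. Lymphoma 403 reached 5.28 with ADR, against 3.58 untreated, and lymphoma 1467 had 3.82 with ADR, against 4.52 untreated. In the other 8 all values lay between 3.02 and 4.10. The mean change was 0.33 (SE 0.18, 95% interval -0.05 to 0.71, adjusted p = 0.205), higher in 8 and lower in 4. Adjusted for fibroblast markers it was -0.20 (adjusted p = 0.789), and with macrophage markers added 0.36 (adjusted p = 0.765). In lymphomas 403 and 5560 the fibroblast marker mean was 9.80 and 9.65 with ADR, the highest of the series.

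Cdkn2d fell in 11 of 12 lymphomas. This gene encodes the INK4 member whose level normally rises in S phase. Its lowest, median and highest values were 7.66, 8.13 and 8.83 with ADR and 8.14, 9.16 and 10.46 untreated. The ranges overlapped, yet 8 of the 12 ADR values lay under the second lowest untreated value of 8.21. The mean change was -0.94 (SE 0.18, 95% interval -1.32 to -0.57, adjusted p = 0.00162), 1.92-fold lower. Lymphoma 2949 fell most (7.66 with ADR, 9.72 untreated), followed by 1467 (8.83 with ADR, 10.46 untreated). Lymphoma 7050, with the lowest untreated value, was the exception (8.72 with ADR, 8.14 untreated).

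The fall of Cdkn2d was of like size in lymphomas 2949, 5766, 6054 and 7050 (mean -0.98) and in the other 8 (mean -0.93). It was -1.03 in sen lymphomas (adjusted p = 0.0429) and -0.88 in DOX lymphomas (adjusted p = 0.0475). Adjusted for fibroblast markers the estimate was -1.19 (adjusted p = 0.0621) and with both marker means -1.54 (adjusted p = 0.180), larger in size but past the threshold in neither.

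Cdkn2c, the p18 gene and a known E2F target, was lower with ADR in 10 lymphomas and higher in 2. Its lowest, median and highest values were 5.75, 7.38 and 8.58 with ADR and 7.19, 7.89 and 8.41 untreated. The spread was wider with ADR (SD 0.78) than untreated (SD 0.35, n = 12 each). The mean change was -0.57 (SE 0.25, 95% interval -1.10 to -0.04, adjusted p = 0.117). Lymphoma 2949 had the lowest change (5.75 with ADR, 8.09 untreated), and 5766 the next (6.78 with ADR, 8.41 untreated). The 2 higher values were in lymphoma 5560 (8.37 with ADR, 7.19 untreated) and lymphoma 403 (8.58 with ADR, 7.96 untreated), which are the 2 with the largest rise of fibroblast markers.

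Lymphomas 5560 and 403 were the only 2 in which Cdkn2c rose, so leaving them out had to make the fall larger. This setting was chosen after the values were seen, so the call it gave is no separate support for a fall. Without both the change was -0.86 (limma adjusted p = 0.0104). Without 5560 alone it was -0.73 (adjusted p = 0.0330), and without 403 alone -0.68 and not called (adjusted p = 0.0699). Adjusted for fibroblast markers it was -1.52 (SE 0.36, adjusted p = 0.0335), and with macrophage markers added it was -1.64 and not called (SE 0.53, adjusted p = 0.207). In lymphomas 2949, 5766, 6054 and 7050 the change averaged -1.43, and without them it was -0.14 (adjusted p = 0.750). In the 7 DOX lymphomas it was -0.99 (adjusted p = 0.0260) and in the 5 sen lymphomas 0.02 (adjusted p = 0.984), and the difference of 1.01 did not pass over all probe sets (unadjusted p = 0.0388, adjusted p = 0.704).

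The kinases and cyclins that the inhibitors act on moved unevenly. Among D-type cyclins and their kinases 2 of 5 rose and 1 fell. Ccnd2 (1.24, SE 0.30, adjusted p = 0.00860) and Ccnd1 (0.72, SE 0.16, adjusted p = 0.00486), encoding cyclins D2 and D1, were higher with ADR, and Cdk6, a kinase they activate, was lower (-0.78, SE 0.21, adjusted p = 0.0160). The INK4 target Cdk4 had a change of -0.30 (adjusted p = 0.0715). In contrast 6 of 7 measured cyclins E, A and B and their kinases fell, each in 12 of 12 lymphomas. They were led by Ccnb2 (5.63-fold), Ccna2 (4.19-fold) and Cdk1 (3.18-fold), and Cdk2, the main CIP/KIP target, was 2.11-fold lower. The exception, Ccna1, was near the floor.

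Downstream of the kinases, 7 of 13 RB and E2F genes fell and 0 rose. E2f8 (3.94-fold), E2f7 (2.98-fold) and Rbl1 (2.50-fold), which encode repressors of cell-cycle genes, fell most, while Rb1 itself had a change of 0.12 (SE 0.15, adjusted p = 0.639). Lmnb1, the lamin B1 gene whose loss is a known mark of senescence, was 2.99-fold lower in 12 of 12 lymphomas (adjusted p = 0.000368). With the fibroblast covariate 4 of the 7 cyclin E, A and B genes and 2 of the 13 RB and E2F genes were still called lower, and 0 D-type cyclin and kinase genes were called. With macrophage markers added 0 genes of these 3 lists were called, and the cyclin E, A and B median was -1.11, against -1.59 without covariates.

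Other p53 targets moved with Cdkn1a. Of 19 measured targets 10 rose and 0 fell, with a median change of 0.50, against -0.006 over all genes. Phlda3, an inhibitor of AKT, was 3.18-fold higher, the kinase gene Plk2 2.59-fold, Mdm2, the p53 ubiquitin ligase, 2.17-fold, and the cyclin G1 gene Ccng1 1.80-fold. Eda2r, a death receptor relative, averaged 5.21 with ADR and 3.85 untreated. Without lymphomas 2949, 5766, 6054 and 7050, 14 of 19 rose (median 0.86). In the fit with the fibroblast covariate 1 did, with a median of 0.47, and with macrophage markers added 0 did, with a median of 0.05. Among 16 measured regulators of Cdkn1a other than p53, 5 rose and 3 fell. Klf4, a repressor or activator by context, averaged 6.95 with ADR and 4.31 untreated (adjusted p = 0.000553), and Klf6, an activator, was 3.03-fold higher. Tgfbr1, a TGF-beta receptor gene, was 1.79-fold higher, and Myc, which represses Cdkn1a, was 1.68-fold lower (adjusted p = 0.0251). With the fibroblast covariate 1 of the 16 was called higher and 0 lower, and 0 were called with both covariates.

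Genes that set p27 and INK4 levels also changed. In the p27 list 4 of 9 measured genes fell and 1 rose. Skp2 and Cks1b, whose products mark p27 for degradation, were 2.48-fold and 2.02-fold lower in 12 of 12 lymphomas, and Ubac1, part of another p27 ligase, was 1.41-fold lower. The forkhead factor gene Foxo3, an activator of Cdkn1b, was 1.32-fold higher. Among 20 measured regulators of the Cdkn2a and Cdkn2b locus 7 fell and 3 rose. Ezh2, the Polycomb methyltransferase that silences the locus, was 2.68-fold lower in 12 of 12 lymphomas, the activator gene Ets1 1.73-fold and the Polycomb gene Cbx2 1.65-fold lower. Id1, which holds back Cdkn2a, averaged 6.52 with ADR and 5.00 untreated. Ets2, in the same list, was 2.14-fold higher in 12 of 12 lymphomas. Bmi1, the best known Polycomb repressor of the locus, had a change of 0.27 (SE 0.14, adjusted p = 0.191). With the fibroblast covariate 1 gene of the p27 list was called lower and 0 higher, and among the locus regulators 1 was called higher and 0 lower. With both covariates 0 genes of either list were called.

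**Figure D3:**
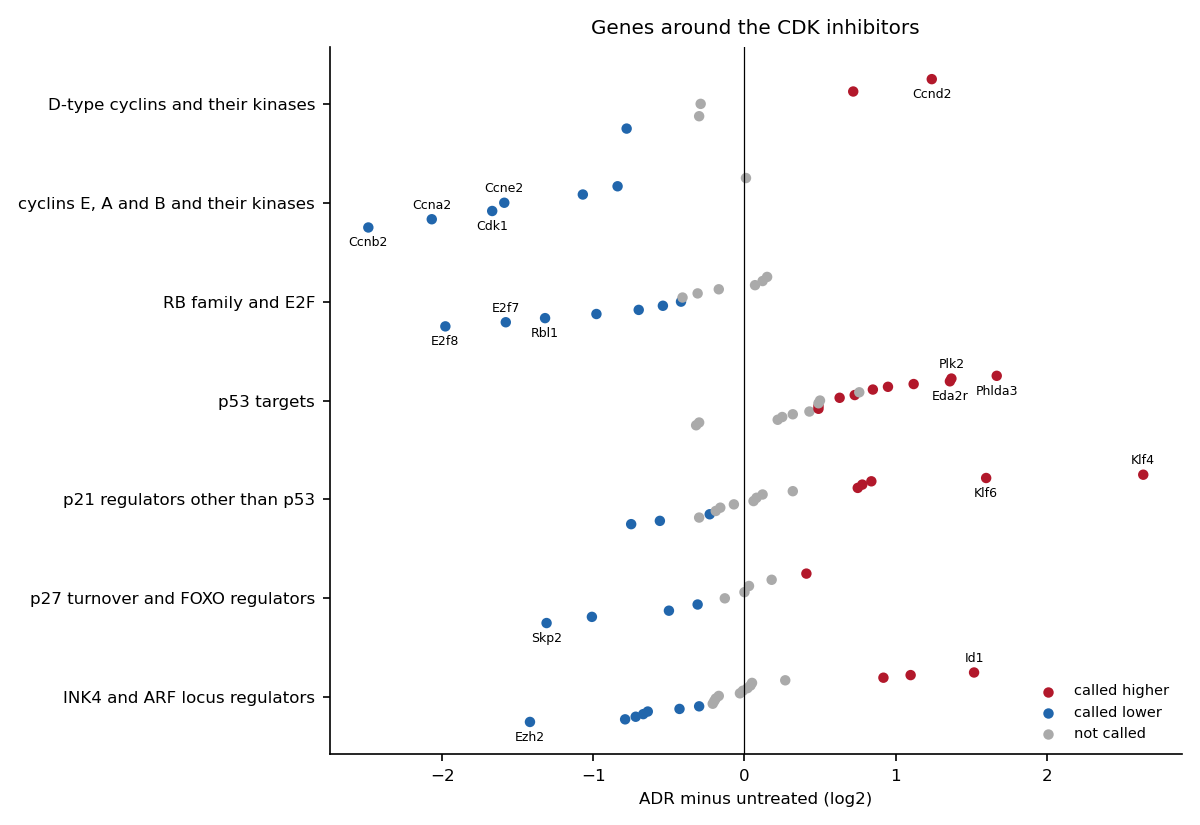
Change with ADR (log2) of the genes around the CDK inhibitors, 1 point per measured gene, in red where called higher, blue where called lower and grey where not called. Cyclin E, A and B genes and E2F genes lie mostly left of 0 and p53 targets mostly right of it, and genes past a change of about 1.2 are named.

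Relations over the 12 lymphomas were computed for each member with the means of the mitosis, p53 target, fibroblast and macrophage lists, once for changes and once for untreated levels. Untreated Cdkn2a was left out because its values form 2 clusters, which leaves 52 relations. By Pearson r 4 passed after Benjamini-Hochberg adjustment over the 52, against 9 at an unadjusted permutation p under 0.05. By Spearman rho none of the 4 passed (permutation p between 0.00740 and 0.0148, adjusted p = 0.178 for each).

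The change of Cdkn1a followed that of the other p53 targets (r = 0.813, rho = 0.748, permutation p = 0.00139, adjusted p = 0.0241). Their untreated levels were also related (r = 0.820, rho = 0.699, permutation p = 0.00106, adjusted p = 0.0241). In lymphomas 2949, 5766, 6054 and 7050 the p53 target means changed by -0.44 to 0.26, against 0.61 to 1.41 in the other 8. Within those 8 the relation of changes had r = 0.607 (exact permutation p = 0.113) and that of untreated levels r = 0.596 (exact permutation p = 0.127); both had the same sign as over all 12 and did not pass with 8 lymphomas. Within the 7 DOX lymphomas, which include the 4, r was 0.920 (exact permutation p = 0.00734) and 0.931 (exact permutation p = 0.00317). Leaving out 2949 and 6054, whose p53 target changes were most extreme, gave r = 0.739 (permutation p = 0.0149), and leaving out 1467 and 2949, most extreme in untreated level, gave r = 0.708 (permutation p = 0.0249).

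Cdkn2c followed the mitosis genes, all 25 of which fell, Mki67 by 5.09-fold. Over untreated levels r was 0.839 (rho = 0.706, permutation p = 0.00063, adjusted p = 0.0241), and over changes 0.799 (rho = 0.734, permutation p = 0.00189, adjusted p = 0.0246). The lymphoma with the deepest fall of mitosis genes, 2949, also had the lowest change of Cdkn2c. Within the 8 lymphomas other than 2949, 5766, 6054 and 7050, r was 0.801 for levels (exact permutation p = 0.0290) and 0.614 for changes (exact permutation p = 0.106). Within the DOX set it was 0.710 (exact permutation p = 0.0778) and 0.916 (exact permutation p = 0.00437). With the 2 most extreme lymphomas left out, r was 0.620 for levels (without 5560 and 5766, permutation p = 0.0535), so that relation rests in part on those 2, and 0.707 for changes (without 2949 and 3802, permutation p = 0.0219). The other 5 relations with an unadjusted permutation p under 0.05 did not pass adjustment. Among them the change of Cdkn2c had r = 0.673 with that of p53 targets (permutation p = 0.0167, adjusted p = 0.174) and r = 0.657 with that of fibroblast markers (permutation p = 0.0203, adjusted p = 0.176). The change of Cdkn1a with that of macrophage markers had r = 0.614 (permutation p = 0.0348, adjusted p = 0.249). The untreated level of Cdkn2c with macrophage markers had r = -0.601 (permutation p = 0.0384, adjusted p = 0.249), and the change of Cdkn1b with p53 targets had r = -0.581 (permutation p = 0.0482, adjusted p = 0.279).

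**Figure D4:**
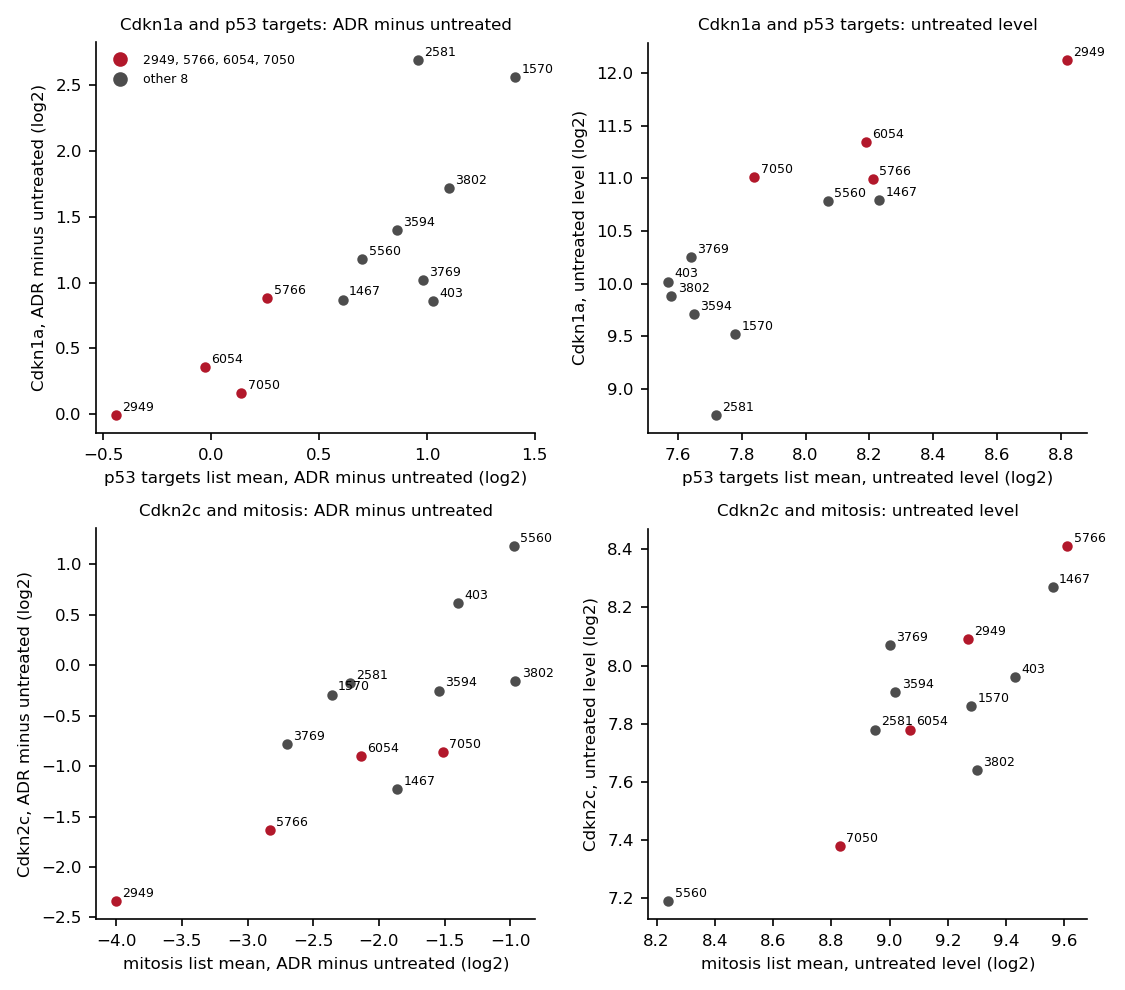
Each point is 1 of 12 lymphomas, with Cdkn1a against the p53 target mean (top) and Cdkn2c against the mitosis mean (bottom), as changes (left) and untreated levels (right), all in log2. Red marks lymphomas 2949, 5766, 6054 and 7050, which hold the 4 lowest p53 target changes. Lymphoma 2949 has the lowest values in both panels of changes.

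The genes whose pattern over the 12 lymphomas was most like a member's are given as a description, from 10256 genes (10257 for members near the floor) above the median level. For changes of Cdkn1a these were St14, a membrane protease gene (r = 0.92), Ercc5, a nucleotide excision repair endonuclease gene (0.90), and Psrc1, a microtubule protein gene (0.89), and 184 genes had r over 0.7. For untreated levels of Cdkn1a they were Pign and Zbtb7b (both 0.96) and Laptm4b (0.94). For changes of Cdkn2c they were Uba6 (0.95), a ubiquitin-activating enzyme gene, Pcx (0.94), the pyruvate carboxylase gene, and Zfp36l1 (0.93), and 548 genes had r over 0.7. For its untreated levels they were Cpt2 (0.92) and the mitotic genes Cdca3 (0.91) and Hmmr (0.90). For changes of Cdkn2d they were Myl12b (0.94), Tspoap1 (0.93) and Nbeal1 (0.90), and for untreated levels Appl1 (0.96), Fbh1 (0.94) and Uevld (0.92). For Cdkn1b they were Ppp1r7 (0.87), Golph3l (0.86) and Sp3 (0.86) for changes, and Nbdy (0.92), Trim12c (0.90) and Dennd4a (0.88) for untreated levels. For the members near the floor the highest r for changes was 0.93 for Cdkn2b (Trib2), 0.85 for Cdkn2a (Parn) and 0.83 for Cdkn1c (Atp1b1). All points share the arrays and the composition differences described above.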

How the data were processed

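The deposited table gave log2 values for each probe set on every array, a scale taken from the values (array medians 4.38 to 4.47, highest values 14.06 to 14.36). The authors' processing is known only from the submitters' processing notes, which name RMA and Partek without settings. RMA compresses weak signals toward a floor. Of 45101 probe sets, 34945 had 1 gene symbol, 932 several, 9160 none and 64 were controls; 34741 matched RefSeq by Entrez ID. The probe set with the highest mean stood for a gene.

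Groups and pairs came from the sample titles, as the series' design text states matched pairs. Deviations from the group means correlated at 0.257 to 0.589 within pairs, over 0.1 in all 12. An untreated array correlated best with its own ADR array in 10 lymphomas. In 2949 and 6054 it correlated better with the ADR array of another lymphoma. Arrays that were identical numbered 0. Whether lymphomas came from separate animals is not stated, so p-values measure the spread between lymphomas; their number limits the precision.

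In R 4.3.3, limma 3.58.1 (lmFit, eBayes) fitted the changes with a term for each lymphoma and Benjamini-Hochberg adjustment over 34945 probe sets. On simulated data for the ADR comparison over 34945 probe sets this recovered 68.7% of changes of 0.5, 95.5% of 1 and 100% of 2, with 5.38% of calls false. Relations were tested in Python 3.11.15 by permutation, two-sided, over 100000 resamples (every ordering where lymphomas numbered 7 or 8). Other tools were scipy 1.17.1, matplotlib 3.10.9, numpy 2.4.6 and pandas 2.3.3. Members and gene lists were chosen with earlier results of these data known. Genes named are the members, in each list the 3 called genes with the largest change in the main direction and the largest the other way, the genes most like a member, and anchors (Mki67, Lmnb1, Mdm2, Ccng1, Myc, Trp53, Skp2, Bmi1, Ezh2, Rb1), of which Trp53 had no single-gene probe set. Cdk4, Cdk2, Ccna1, Ets2, Col1a1, Pdgfrb, C1qa, C1qb, C1qc, Mrc1, Hba-a1 and Slc4a1 were named after their values were seen. Alternatives covered pairing, marker covariates, scaling, a filter, the variance model, naming sets and leaving out lymphomas.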

Additional observations from a re-analysis of the deposited data

How the results depend on the processing

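The calls of Cdkn1a and Cdkn2d held under both rescalings, the filter, 1 probe set per gene, the trended variance model, the fit with no replicate block and without any single lymphoma (Cdkn1a 1.00 to 1.25, Cdkn2d -1.08 to -0.84). With the fibroblast covariate Cdkn1a (1.11) and Cdkn2d (-1.19) lost their calls, as did Cdkn1a (0.16) and Cdkn2d (-1.54) with macrophage markers added and Cdkn1a in the sen set (1.63). Cdkn2c gained a call with the fibroblast covariate (-1.52; not with macrophage markers added, -1.64), in the DOX set (-0.99) and without lymphomas 403 and 5560 (-0.86), turned in the sen set (0.02), and ran from -0.73 to -0.41 without single lymphomas. Signs of uncalled values turned for Cdkn1b with both marker covariates (0.24) and in the DOX set (0.12), for Cdkn2b with the fibroblast covariate (-0.20), and for Cdkn1c with the fibroblast covariate (0.10), both covariates (0.11), in the DOX set (0.08) and without 403 and 5560 (2.6e-05); without single lymphomas Cdkn1c ran from -0.13 to 0.01. With both covariates the second probe sets of Cdkn1a (-0.18) and Cdkn1b (0.16) turned too, and the second Cdkn1a probe set was not called with no replicate block (0.85, adjusted p = 0.375), the only member probe set whose call the block changed. The causes were not tested. The number of probe sets called, 8322, was 5192 with no replicate block, 4829 with 1 probe set per gene (fewer features), 1410 with the fibroblast covariate, 0 by limma with both covariates (4477 at an unadjusted p under 0.05), 1350 in the sen set and 5176 in the DOX set (fewer lymphomas). The naming sets differed in 0 probe sets by limma (2467 unadjusted) in that fit and under both rescalings and the trended variances. Against 4 relations that passed, 1 did without the 2 farthest lymphomas (none of the 4, but Cdkn2a with p53 targets over changes, r = 0.875, permutation adjusted p = 0.0437, against 0.364 over all 12), 0 within the DOX set and 0 without lymphomas 2949, 5766, 6054 and 7050. The filter left no value for Cdkn1c, Cdkn2a, Cdkn2b and the second Cdkn1b probe set, and low signal limits all of these. The settings without named lymphomas and with the actin control as a covariate were chosen after seeing the data; the actin covariate changed no member's call.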
